A study of Mus musculus with 40 samples.

Results

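The 8 genes described here encode the TGF-beta ligands Tgfb1, Tgfb2 and Tgfb3, the receptors Tgfbr1 and Tgfbr2, and the receptors and co-receptors Tgfbr3, Eng and Acvrl1. They were chosen by gene symbol, and each symbol matched exactly 1 of the 54307 genes listed for the 40 libraries. RNA came from retina and choroid of 20 C57BL/6J mice of both sexes 3 days after 6 laser burns per eye, a model of choroidal neovascularization (CNV), and the choroid sample was the central part that held the lesions. All mice carried floxed Tgfbr2 alleles (Tgfbr2 fl/fl) and received tamoxifen eye drops for 5 days from an age of 6 to 7 weeks. In Tgfbr2ΔEC mice a heterozygous tamoxifen-inducible Cdh5-CreERT2, driven by a promoter of endothelial cells, deletes Tgfbr2, and the controls were littermates without the Cre. PLX5622 (PLX), an inhibitor of the CSF1 receptor on which mononuclear phagocytes (MP) depend, was given in the chow from the first tamoxifen dose until the end. This gave the groups control – PLX, Tgfbr2ΔEC – PLX, control + PLX and Tgfbr2ΔEC + PLX, with 5 mice each and a retina and a choroid library from each mouse.

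TGF-beta ligands are secreted in a latent form, bound to their propeptide and to matrix proteins, and act once they are released. Active ligand binds the type II receptor encoded by Tgfbr2, which phosphorylates the type I receptor ALK5, encoded by Tgfbr1, and this in turn activates the receptor SMADs. Betaglycan, encoded by Tgfbr3, presents ligand to the type II receptor, and endoglin (Eng) with the type I receptor ALK1 (Acvrl1) forms the endothelial branch, which also binds BMP9 and BMP10. In the retina the pathway is known for its part in the identity of microglia and in the stability of vessels.

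Tgfb1 lies on chromosome 7 of GRCm39 (25386390 to 25404506, plus strand), Tgfb2 on chromosome 1 (186354985 to 186438294, minus strand) and Tgfb3 on chromosome 12 (86102756 to 86126301, minus strand). Tgfbr1 lies on chromosome 4 (47353134 to 47414931, plus strand), Tgfbr2 on chromosome 9 (115913361 to 116004800, minus strand) and Tgfbr3 on chromosome 5 (107249402 to 107437623, minus strand). Eng lies on chromosome 2 (32535543 to 32574661, plus strand) and Acvrl1 on chromosome 15 (101025996 to 101043217, plus strand). Tgfb3 shares sequence on the opposite strand with Ttll5, and Eng with Fpgs, both protein-coding; the libraries were stranded, but the strand setting of the quantification is not given in the sources used here, so reads of these pairs may not be fully separated. All values are summed over the exons of a gene and over all cells of a tissue.

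Tgfb1 and Tgfbr1 are the members that fell with PLX in the choroid, and the 250 bases upstream of their annotated starts are shown for this reason. They were read from GRCm39 at chr7:25386140-25386389 and chr4:47352884-47353133, both on the plus strand, and capitals mark GC boxes (GGGCGG on either strand), the binding letters of SP1-type factors.
Tgfb1: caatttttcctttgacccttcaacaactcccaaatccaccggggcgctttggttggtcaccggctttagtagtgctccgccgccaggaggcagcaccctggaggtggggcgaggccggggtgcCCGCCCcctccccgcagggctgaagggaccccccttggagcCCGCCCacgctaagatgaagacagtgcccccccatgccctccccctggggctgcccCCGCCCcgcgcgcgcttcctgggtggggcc
Tgfbr1: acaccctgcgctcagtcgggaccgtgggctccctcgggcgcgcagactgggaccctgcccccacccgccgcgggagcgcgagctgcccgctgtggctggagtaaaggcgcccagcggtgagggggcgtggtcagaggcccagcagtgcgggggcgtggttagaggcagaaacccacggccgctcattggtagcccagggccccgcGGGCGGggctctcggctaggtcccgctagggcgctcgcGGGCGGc
The Tgfb1 window held 3 GC boxes and 69.6% G or C, and the Tgfbr1 window held 2 GC boxes and 75.2%. Of 21537 windows upstream of protein-coding genes, 36.5% held at least 1 GC box, and the median share of G or C was 53.2%. Also searched on both strands were GAGGAAG, the core letters bound by the myeloid factor PU.1, and CAGACA, a SMAD box. Neither was found in these windows, while 10.4% and 15.6% of all windows held them. Among the other members, which were not called lower in the choroid, the window of Acvrl1 held 1 GC box and 1 SMAD box, those of Tgfb2 and Tgfbr2 held 1 SMAD box each, and those of Tgfb3, Tgfbr3 and Eng held none of these letters. The annotated start of Tgfbr2 differs between gene catalogues, so its window may not lie at the start used in these tissues.

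Values are normalized counts, the reads of a gene as estimated by salmon and scaled between libraries by the authors with DESeq2, both tissues together. Totals per library ran from 22256892 to 25956180 normalized counts, about 20959034 to 30544580 reads, and 1 read was worth 0.742 to 1.195 normalized counts. Differences are on the scale log2(normalized count + 1), written as log2 with the standard error (SE), and a gene is called when its p-value from limma, adjusted over all genes tested (Benjamini-Hochberg), is at or under 0.05. The labelled tissues differed in their markers, since 10 photoreceptor genes summed to 1018883 to 1518109 normalized counts in retinae and to 2443 to 135289 in choroids. Neural retina RNA in the choroids was uneven, with a score (mean log2 of these 10 genes) of 11.85 ± 0.72 (SD, n = 5) in Tgfbr2ΔEC – PLX against 9.26 ± 1.30 in control – PLX, 9.32 ± 2.17 in control + PLX and 9.55 ± 0.73 in Tgfbr2ΔEC + PLX choroids. Cx3cr1, a receptor of microglia and other MP, ran from 143 to 375 normalized counts in retinae without PLX and from 0 to 4 with PLX, and from 1300 to 1996 against 94 to 220 in choroids.

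The order of the ligand RNA levels differed between the tissues. In the retina Tgfb2, a ligand that needs betaglycan for strong receptor binding, was the most abundant per length and Tgfb1, the form best known from immune cells and platelets, the least. Per kilobase of the canonical transcript, Tgfb2 stood at 370 ± 43.5 normalized counts (SD, n = 20), Tgfb3 at 128 ± 14.3 and Tgfb1 at 23.7 ± 12.7. Tgfb2 thus made up 70.8% ± 3.68 of the ligand level per kilobase, Tgfb3 24.6% ± 3.30 and Tgfb1 4.55% ± 2.32. In the choroid the order was different, with Tgfb3 at 3031 ± 528, Tgfb1 at 1068 ± 165 and Tgfb2 at 286 ± 62.8 normalized counts per kilobase. Here Tgfb3 held 68.7% ± 5.18, Tgfb1 24.7% ± 5.02 and Tgfb2 6.56% ± 1.42 of the ligand level. The ranges of the 3 ligands did not overlap over the 20 libraries of either tissue.

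Receptor levels were also ordered differently. In the retina Tgfbr1 stood highest per kilobase at 146 ± 25.5 normalized counts (SD, n = 20), followed by Acvrl1 at 101 ± 45.9, Eng at 55.0 ± 16.1, Tgfbr3 at 33 ± 4.84 and Tgfbr2 at 18.5 ± 7.37. The range of each of these receptors over the 20 retinae overlapped with that of the next in the order, and neighbours in this order were not tested against each other. In the choroid Eng came first at 2220 ± 236, followed by Tgfbr2 at 1269 ± 119, Acvrl1 at 1200 ± 161, Tgfbr3 at 603 ± 92.8 and Tgfbr1 at 391 ± 61.1. Eng did not overlap with Tgfbr2, while each later receptor overlapped in range with the next. Tgfbr2 made up 5.28% ± 2.05 of the receptor level per kilobase in the retina and 22.4% ± 1.66 in the choroid, and Tgfbr1 41.7% ± 5.00 and 6.95% ± 1.39.

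**Figure D1:**
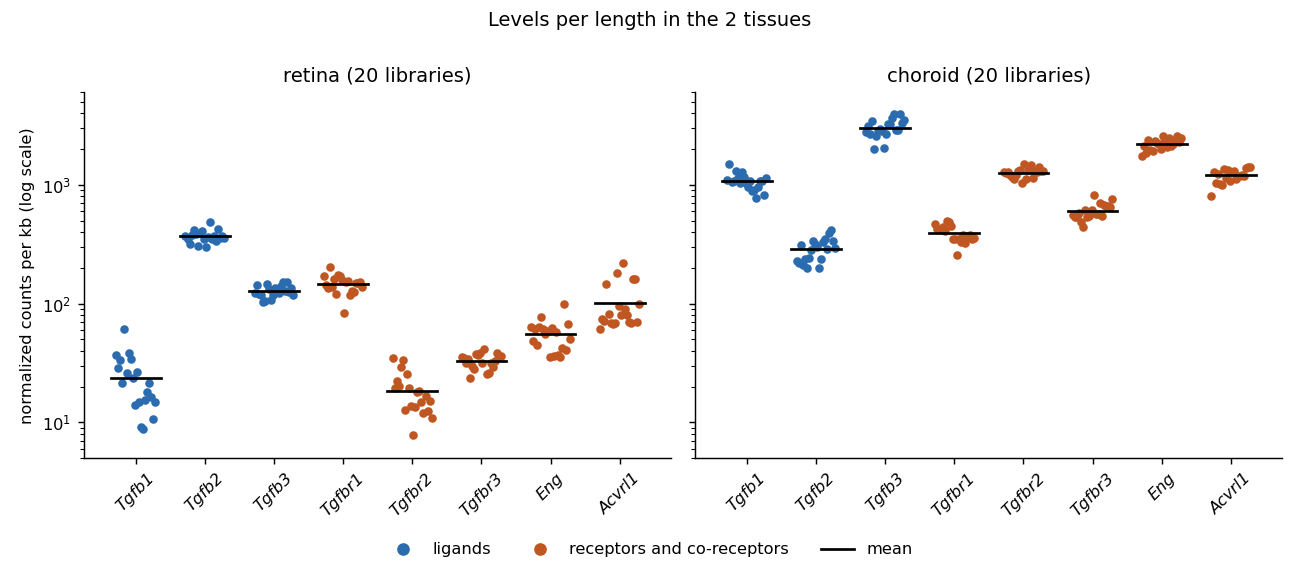
Normalized counts per kilobase of canonical transcript (log scale) of the 3 ligands and 5 receptors in the 20 retina and 20 choroid libraries; points are libraries and black lines are means. Tgfb2 leads in the retina and Tgfb3 in the choroid, and Tgfbr2 has the lowest mean of the receptors in the retina and stands next to Eng in the choroid.

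Compared directly, 7 of the 8 members were higher and 1 was lower in the choroid than in the retina over the 4 groups. This stands against a background in which 82.0% of 24317 genes were called, 40.8% higher and 41.1% lower, so the calls themselves set no member apart, and the sizes are of more use. The median difference of the members was 4.37 log2, and that of all genes tested was -0.012. Tgfbr2 differed most, at 10764 ± 1011 normalized counts in the choroid and 157 ± 62.5 in the retina (SD, n = 20), a difference of 6.19 log2 (SE 0.10) or 73.0-fold. Tgfb1 was 49.3-fold, Eng 41.5-fold, Tgfb3 23.5-fold, Tgfbr3 18.2-fold and Acvrl1 12.7-fold higher in the choroid. Tgfbr1 was 2.68-fold higher, at 2284 ± 357 against 855 ± 149 normalized counts. Tgfb2 alone among the members was lower, at 1495 ± 328 against 1933 ± 227 normalized counts (log2 -0.39, SE 0.07, limma adjusted p = 7.91e-06), with choroids from 1035 to 2165 and retinae from 1553 to 2553, which overlap. Fewer cells of a type and less RNA per cell cannot be told apart in such bulk tissue, here or in the comparisons that follow. The 10 endothelial markers summed to 27732 to 39848 normalized counts in choroids and 3967 to 6708 in retinae, and the 6 fibroblast markers to 418852 to 682723 and 401 to 1247; their part in these differences was not tested.

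**Figure D2:**
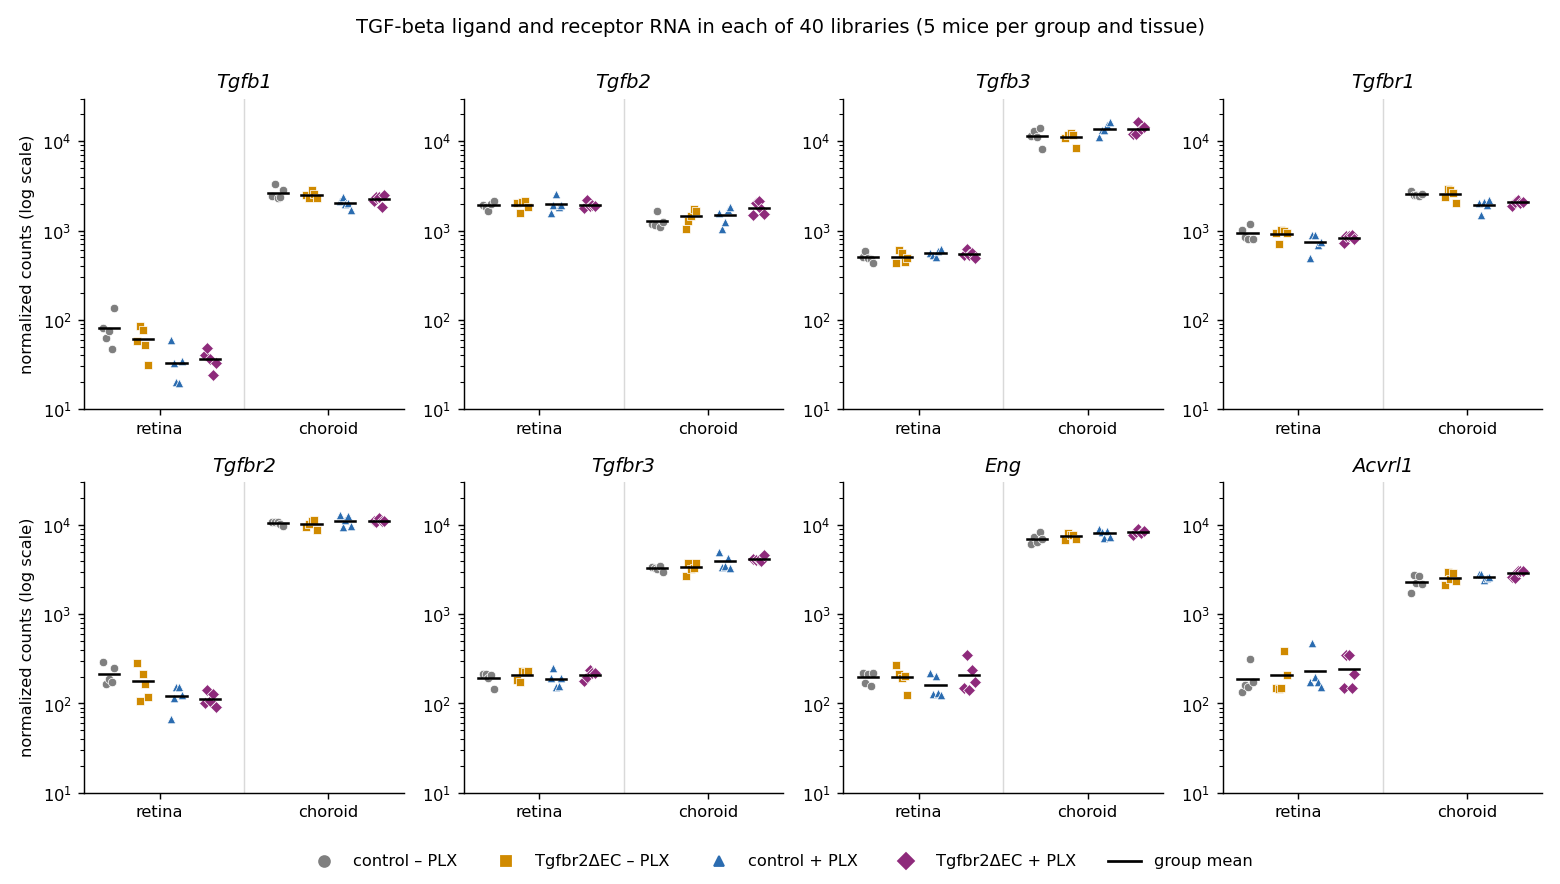
Normalized counts (log scale) of each member in all 40 libraries; symbols and colours are the 4 groups, 5 mice each, in retina (left) and choroid (right) of each panel, and black lines are group means. Each member except Tgfb2 lies higher in the choroid, and 5 Acvrl1 points of the retina, at 314 to 472, lie apart from the others.

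Mice with and without PLX were compared next. In the retina with PLX Tgfb1, the ligand that microglia depend on, fell to about 50.7% of its level without PLX, Tgfbr2 stood at 61.8% without passing the adjusted test, and the other 6 members were not called. Tgfb1 counts were 81, 63, 74, 47 and 136 in control – PLX, 58, 85, 76, 52 and 31 in Tgfbr2ΔEC – PLX, 59, 33, 20, 20 and 34 in control + PLX, and 40, 48, 36, 24 and 33 in Tgfbr2ΔEC + PLX retinae. The diets overlapped, and 3 of the 10 retinae with PLX lay below every retina without it. The difference over both genotypes was -0.98 log2 (SE 0.24, limma adjusted p = 0.0431). Tgfb1 was 1 of 8 members called, where 1.09% of 23243 genes were called, 250 lower and 4 higher, and the median difference was -0.08 log2 over the members and 0.003 over all genes. The 16 MP markers matched were all called lower, and their sum was 2762 to 6424 normalized counts without and 419 to 585 with PLX, with 12 of them, Cx3cr1, Tmem119 and Tyrobp included, at 0 in at least 1 retina with PLX. Of 6 markers of perivascular macrophages 3 were called lower (median -1.42 log2), and their sum was 300 to 440 without and 237 to 380 with PLX. The part of these cells in the fall of Tgfb1 was not tested. The call for Tgfb1 was close to the threshold: it was lost when any mouse other than 4, 10, 11 or 17 was left out (16 of 20 fits, adjusted p up to 0.104), while the difference stayed between -1.10 and -0.88. It was also lost with all mice kept, under a pseudocount of 5 (adjusted p = 0.0502), with no minimum mean (0.0761) and with a neural retina (0.0961), sex (0.0652), endothelial (0.28) or fibroblast (0.201) score as a covariate.

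Tgfbr2 RNA, the type II receptor, was lower in value in retinae with PLX but did not pass. Its counts were 293, 164, 190, 172 and 248 in control – PLX and 285, 107, 216, 164 and 117 in Tgfbr2ΔEC – PLX retinae. With PLX they were 66, 115, 152, 155 and 125 in control and 101, 140, 106, 127 and 91 in Tgfbr2ΔEC retinae. No retina with PLX reached the 164 of the lowest control – PLX retina, while the Tgfbr2ΔEC retinae overlapped between diets. The mean was 195 without and 118 with PLX, a difference of -0.69 log2 (SE 0.19, unadjusted p = 0.00140, limma adjusted p = 0.109), and it passed only when mouse 7 was left out (adjusted p = 0.0466). With a covariate for neural retina RNA (the score above) the difference was -0.50 log2 (adjusted p = 0.197).

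The other receptors of the retina moved less. Tgfbr1 had a mean of 923 without and 788 with PLX (log2 -0.23, SE 0.11, adjusted p = 0.758), and its lowest retina, at 489, belonged to control + PLX. Tgfbr3 stayed at 201 and 200, with an interval of the difference from -0.24 to 0.22 log2. Eng, the endothelial co-receptor, had means of 198 and 185 (interval -0.51 to 0.22), and Acvrl1 means of 198 and 238 (interval -0.26 to 0.74). Acvrl1 was uneven, with most retinae between 133 and 216 and 5 retinae, spread over all 4 groups, between 314 and 472. The ligand Tgfb2 had means of 1920 and 1945 (interval -0.16 to 0.18 log2), and Tgfb3 had means of 506 and 554 (interval -0.03 to 0.30). The 10 endothelial markers summed to 4542 to 6708 without and 3967 to 6461 with PLX in retinae, and 0 of 10 were called.

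**Figure D3:**
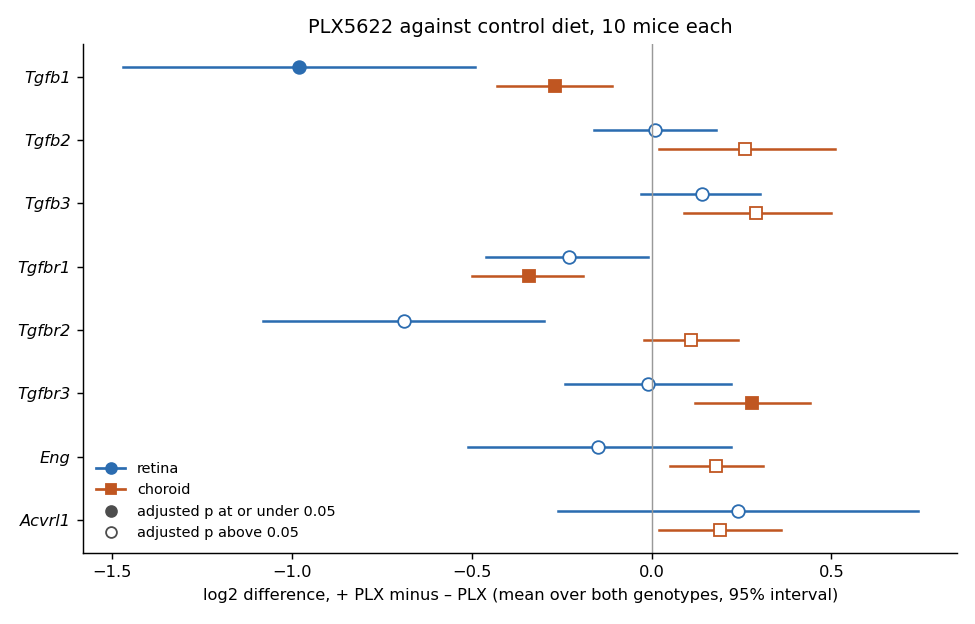
Difference between + PLX and – PLX (log2, mean over both genotypes) of each member in retina and choroid with its 95% interval; filled symbols passed the adjusted test. Tgfb1 fell in both tissues, and Tgfbr1 fell and Tgfbr3 rose in the choroid. Each of these calls was ended by at least 1 other setting, that of Tgfbr1 by the endothelial score as a covariate. The intervals of Tgfbr2 do not overlap between the tissues.

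In the choroid members were called in both directions with PLX. Tgfbr1, the type I receptor ALK5, fell to 78.8%, Tgfb1 fell to 82.9% and Tgfbr3, betaglycan, rose to 121% of the level without PLX. These are 3 of 8 members, where 7.13% of 23619 genes were called, 2.07% higher and 5.06% lower, and the median difference was 0.18 log2 over the members and 0.001 over all genes. Tgfbr1 counts were 2756, 2483, 2501, 2434 and 2560 in control – PLX, 2373, 2891, 2852, 2652 and 2043 in Tgfbr2ΔEC – PLX, 2043, 1499, 2063, 1948 and 2221 in control + PLX, and 1890, 2106, 2216, 2060 and 2091 in Tgfbr2ΔEC + PLX choroids. The control groups did not overlap between diets, whereas the Tgfbr2ΔEC – PLX choroid at 2043 lay within the range with PLX. The difference was -0.34 log2 (SE 0.07, limma adjusted p = 0.00357), and its call held when any mouse was left out (adjusted p up to 0.00924). With an endothelial marker score as a covariate, added after the data had been seen, it was -0.23 log2 (adjusted p = 0.559).

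Tgfb1 in the choroid stood at 2435, 3290, 2340, 2385 and 2876 in control – PLX and at 2518, 2293, 2831, 2576 and 2308 in Tgfbr2ΔEC – PLX. With PLX it was 2123, 2386, 1981, 2009 and 1703 in controls and 2141, 2379, 2393, 1826 and 2510 in Tgfbr2ΔEC mice. The diets overlapped, and 6 of the 10 choroids with PLX lay below every choroid without it. The difference of -0.27 log2 (SE 0.08, limma adjusted p = 0.0388) lost its call in 11 of 20 fits with a mouse left out, those without mouse 2, 5, 6, 8, 9, 11, 13, 14, 15, 16 or 19 (adjusted p up to 0.0793), and, with all mice kept, with no minimum mean (adjusted p = 0.0561), rescaling by trimmed means (0.0637) or a sex score as a covariate (0.0539). In counts the mean of Tgfb1 dropped by 440 in choroids and dropped by 35.7 in retinae. The 16 MP markers summed to 53842 to 66656 without and 16241 to 27497 with PLX in the choroid, with 15 of 16 called lower and none at 0, and the 6 markers of perivascular macrophages to 6844 to 10696 and 360 to 1178, with 6 of 6 called lower; their part in the fall of Tgfb1 and Tgfbr1 was not tested.

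Tgfbr3, the co-receptor that presents ligand, rose in the choroid. Its counts were 3377, 3279, 3232, 3493 and 2983 in control – PLX and 2706, 3721, 3239, 3318 and 3746 in Tgfbr2ΔEC – PLX choroids. With PLX they were 5019, 3427, 3492, 4289 and 3308 in controls and 4114, 4040, 4012, 3939 and 4640 in Tgfbr2ΔEC mice. The Tgfbr2ΔEC groups did not overlap between diets, and in the controls the diets overlapped, with 7 of all 10 choroids with PLX above every choroid without it. The difference was 0.28 log2 (SE 0.08, limma adjusted p = 0.0282). It lost its call when mouse 5, 6, 8, 14 or 20 was left out (adjusted p up to 0.0602) and with the neural retina covariate (0.21 log2, adjusted p = 0.149), and with the endothelial or a fibroblast score as a covariate it was 0.11 (adjusted p = 0.849) and 0.19 log2 (adjusted p = 0.271).

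The remaining members of the choroid were higher in value with PLX without passing. Tgfb3 went from a mean of 11341 to 13832 (log2 0.29, SE 0.10, adjusted p = 0.0852), and it passed when mouse 4 or 11 was left out (adjusted p = 0.0467 and 0.0483). Eng went from 7263 to 8229 (log2 0.18, SE 0.06, adjusted p = 0.0830), and it passed without mouse 4 (adjusted p = 0.0311). The intervals of Tgfb2 (0.02 to 0.51 log2) and Acvrl1 (0.02 to 0.36) also lay above 0, and that of Tgfbr2 ran from -0.02 to 0.24. Of the 10 endothelial markers 6 were called higher, among them Tie1 (0.27 log2), Esam (0.35 log2) and Pecam1 (0.24 log2), and their sum was 27732 to 34551 without and 31110 to 39848 with PLX. Of 7 pericyte and smooth muscle markers Rgs5 (0.45 log2) and Myh11 (0.74 log2) were called higher, and of 6 fibroblast markers Dcn (0.45 log2). With the endothelial score as a covariate Eng stood at 0.002 log2 and Acvrl1 at -0.005 log2. The genes of this score rose with PLX themselves, so a fit with it cannot separate the diet from the endothelial share. The same holds for the fits of Tgfbr1 and Tgfbr3 with this score, and the part of endothelial cells in these differences was not tested.

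Within each genotype the effect of PLX had the same sign for the members that had passed. In retinae of controls Tgfb1 differed by -1.28 log2 (SE 0.33, adjusted p = 0.107) and in Tgfbr2ΔEC retinae by -0.68 (SE 0.33, adjusted p = 1.00), and 0 of 8 members were called in either, where 0.736% and 0.516% of genes were called; Tgfb1 passed in controls when mouse 11 was left out (adjusted p = 0.0240). Tgfbr2 differed by -0.82 (SE 0.27) in control and -0.57 (SE 0.27) in Tgfbr2ΔEC retinae. In choroids of controls Tgfbr1 was the 1 member called (log2 -0.39, SE 0.10, adjusted p = 0.0316), where 3.75% of genes were called, and its call was lost without mouse 1, 2, 3, 5, 12 or 14 (adjusted p up to 0.0891). In Tgfbr2ΔEC choroids 0 members were called, where 4.06% of genes were called, with Tgfbr1 at -0.30 (SE 0.10, adjusted p = 0.123), passing when mouse 10 or 12 was left out (adjusted p = 0.0331 and 0.0480). Whether the genotypes differed in the effect of PLX was tested as an interaction, and 0 of 8 members and 0% of genes were called in either tissue, with members between -0.05 and 0.60 log2 in the retina and between -0.05 and 0.22 in the choroid. At an unadjusted p under 0.05 there were 567 genes in the retina and 1552 in the choroid, and 0 members.

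Whether the tissues differed in the effect of PLX was tested in all 40 libraries. Tgfbr2 was the 1 member of 8 called, where 1.37% of 24317 genes were called. Its change with PLX was 0.81 log2 higher in the choroid than in the retina (SE 0.20, 95% interval 0.40 to 1.21, limma adjusted p = 0.0238). In the choroid Tgfbr2 counts were 10849, 10709, 10794, 10328 and 9836 in control – PLX, 9490, 10294, 11066, 11303 and 8729 in Tgfbr2ΔEC – PLX, 12801, 9434, 11298, 12475 and 9767 in control + PLX, and 11072, 10817, 11999, 11163 and 11049 in Tgfbr2ΔEC + PLX. These overlapped between all groups, with means of 10340 without and 11187 with PLX, whereas the retina means were 195 and 118. With the mouse as a block, since both tissues came from the same animals, the value was the same and the adjusted p was 0.0487. The call was lost when mouse 1, 5, 6, 8, 16, 18 or 20 was left out (adjusted p up to 0.0656). Tgfb1 differed between the tissues by 0.71 log2 (SE 0.24) without passing (adjusted p = 0.196). For Tgfbr1 the difference between the tissues was -0.11 log2 (SE 0.13, limma adjusted p = 0.907).

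**Figure D4:**
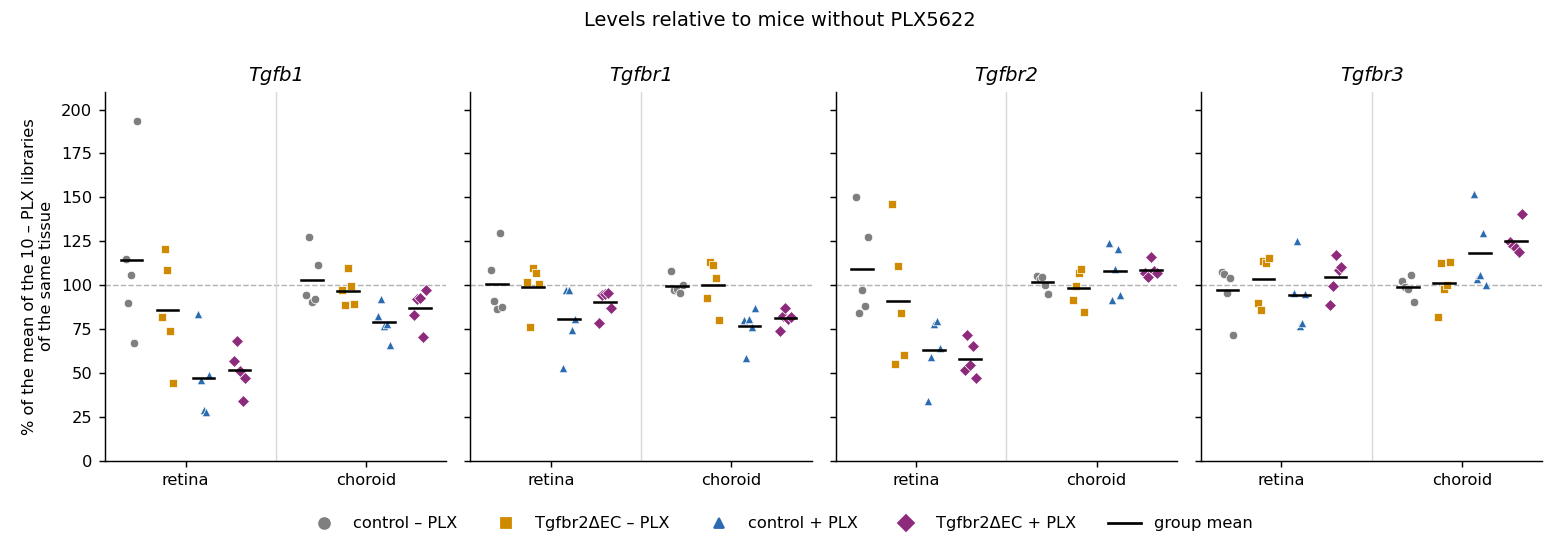
Levels of Tgfb1, Tgfbr1, Tgfbr2 and Tgfbr3 in each library as percent of the mean of the 10 – PLX libraries of the same tissue (dashed line at 100%); symbols are the 4 groups and black lines are group means. Tgfbr2 lies lower with PLX in the retina, at a mean of 118 against 195 normalized counts and without a call, and not in the choroid. Tgfbr1 lies lower with PLX in both tissues, at 85.0% in the retina and 78.8% in the choroid, and was called in the choroid.

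Tgfbr2, the gene targeted in endothelial cells, was not called between the genotypes in either tissue. In retinae without PLX it stood at a mean 80.1% of the control level, with an interval from 54.6% to 118% (log2 -0.32, SE 0.27, limma adjusted p = 0.985), and with PLX at 95% (64.7% to 139%). In choroids it stood at 96.5% without PLX (84.9% to 110%) and at 101% with PLX (89.1% to 115%). Whole-tissue levels under 84.9% of control in choroids without PLX and under 89.1% in those with PLX lay outside these intervals. The values do not check the deletion itself, because the recombined exon was not measured apart from the others and endothelial cells are only a share of each tissue. For the deletion the paper refers to its own evidence in retinal and choroidal endothelium and to PCR and qPCR on choroid. Over the 4 comparisons of genotype 0 members were called, where 0% of genes in either retina comparison and 0.00423% in either choroid comparison were called, and at an unadjusted p under 0.05 there were 758 and 629 genes in retinae without and with PLX, and 2184 and 889 in choroids. The members ranged from -0.40 to 0.11 log2 in retinae without PLX, from -0.07 to 0.35 in those with PLX, from -0.08 to 0.18 in choroids without PLX and from -0.01 to 0.30 in those with PLX. The neural retina score differed between the genotypes in choroids without PLX, as given above, and with this score as a covariate Tgfbr2 was at 0.048 log2 in place of -0.05.

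Of 48 other genes of the pathway, 1 of 47 tested was called in the retina (median difference -0.05 log2) and 7 of 46 tested in the choroid (median 0.10 log2) with PLX, beside the 1.09% and 7.13% of all genes given above. The gene in the retina was Tgfbi, an extracellular matrix protein induced by TGF-beta, which fell by 2.03 log2 (SE 0.43, limma adjusted p = 0.0137) from 122 ± 117 to 11.4 ± 4.62 normalized counts in controls and from 44.2 ± 45.8 to 12.4 ± 2.67 in Tgfbr2ΔEC retinae (SD, n = 5). It fell by 0.69 log2 in the choroid as well. In the choroid 2 of 11 genes of latent ligand storage and activation rose, the matrix-binding proteins Ltbp2 (0.37 log2) and Ltbp4 (0.39 log2). Of the same 11, Nrros, which anchors latent TGF-beta1 on microglia and macrophages, fell by 1.64 log2 (SE 0.13, adjusted p = 8.00e-09), from 1226 ± 210 to 400 ± 139 in controls and from 1036 ± 153 to 334 ± 33.2 in Tgfbr2ΔEC mice. In the retina Nrros was not called, and its change differed between the tissues by -1.36 log2 (adjusted p = 0.00651).

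Of the 16 SMADs and regulators, the receptor SMAD Smad3 rose in the choroid (0.31 log2, SE 0.07, limma adjusted p = 0.00478) and the corepressor Tgif1 fell by 0.33 log2 (adjusted p = 0.00763). Of the 5 target genes of TGF-beta, Ccn2, a matricellular protein, rose (0.63 log2, SE 0.18, adjusted p = 0.0418) while Tgfbi fell, and the other 3 were not called. None of the 6 target genes of ALK1 or of the 8 other superfamily receptors was called in either tissue. The medians with PLX in the choroid were 0.19 log2 for latent storage and activation, 0.11 for SMADs and regulators, -0.24 for the TGF-beta targets and 0.19 for the ALK1 targets, beside the 0.001 of all genes tested. Between the tissues, where 40.8% of all genes were called higher in the choroid and 41.1% lower, 39 of 47 tested genes of the pathway were higher and 7 lower, with all 11 genes of latent storage and activation higher, led by Ltbp2 (7.81 log2) and Thbs1 (7.23 log2), an activator of latent ligand. The ALK1 ligand Gdf2 (BMP9) was near the detection floor, at 3.29 to 22.7 normalized counts in retinae and 0 to 3.26 in choroids. None of the 47 tested in the retina and the 46 tested in the choroid was called between genotypes.

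**Figure D5:**
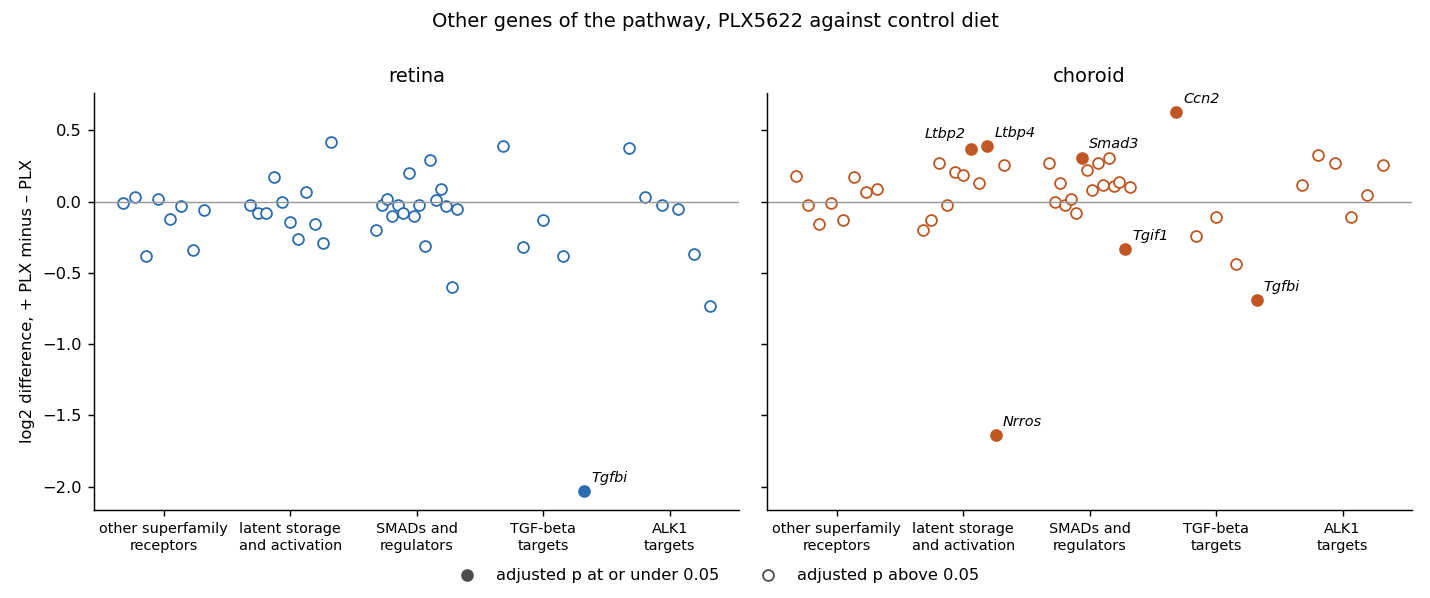
Difference between + PLX and – PLX (log2, mean over both genotypes) of the other pathway genes by list in retina (left) and choroid (right); filled and named points passed the adjusted test. Tgfbi falls in both tissues, Nrros falls in the choroid, and most other genes lie within 0.5 log2 of 0.

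The genes whose levels ran most like each member were sought over the 20 libraries of a tissue, among 13792 genes in retinae and 14412 in choroids with a mean of at least 50. These are Pearson correlations of log2 values over libraries that share their diet groups and depth, and they are given as a description. In the retina Tgfb1 ran most like Cd68 (r = 0.88), a lysosomal protein of macrophages, and Ucp2 (0.86), and Tgfbr2 most like Cd93 (0.88), a receptor of endothelial and myeloid cells, and Gbp7 (0.87). Tgfbr1 ran with Zfp322a (0.90) and Chmp1b2 (0.89), Tgfb2 with Etv6 (0.90) and Ubxn7 (0.87), and Tgfb3 with Tunar (0.84). Eng ran with Pgghg (0.80) and Nlrc5 (0.79), Acvrl1 with Ext1 (0.78) and D3Ertd751e (0.74), and Tgfbr3 with Casd1 (0.73) and 4732416N19Rik (0.68).

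In the choroid Eng and Acvrl1, the paired receptors of the endothelial branch, ran with the same glypican gene, Gpc4, at r = 0.90 and 0.87, and Acvrl1 next with Eng itself (0.85). Eng ran next with Bgn (0.88). Tgfbr1 ran with the integrin gene Itga4 (0.93) and Slc29a3 (0.91), and Tgfb1 with Arpc1b (0.88) and Pabpc1 (0.84). Tgfb3 ran with Boc (0.92) and Ank (0.88), Tgfb2 with Igdcc4 (0.86) and Efr3b (0.84), Tgfbr3 with Aldh6a1 (0.91) and Bhlhe41 (0.88), and Tgfbr2 with Smurf2 (0.85), a ubiquitin ligase that acts on TGF-beta receptors, and Reep3 (0.84). No member had the same closest gene in retina and choroid.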

How the data were processed

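Stranded single-read libraries of polyadenylated RNA were prepared by the authors from retina and choroid of 20 mice. Per the labels and the study's methods, reads were quantified with salmon 1.10.1 against GRCm39, imported with tximport and normalized with DESeq2 1.36.0. The deposited values are this signal per gene, called normalized counts. They are not whole numbers (42.2% to 65.3% of low values lay within 0.1 of a whole read), so that count tests were not run and the depths given are approximate. Both tissues had been scaled together, with a median ratio of 1.0082 in every library, and tissue differences rest on that scaling. Intervals and depths cover the spread between mice and counting, and the reads carried no molecular identifiers.

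Symbols and positions were taken from GENCODE release 39 of GRCm39, which held 53700 of the 54307 genes. Linear models were fitted with limma 3.58.1 (trend of the variance on the mean, R version 4.3.3) to log2(normalized count + 1) of genes with a mean of at least 1, with the 4 groups of a tissue in one fit (23243 genes in retina, 23619 in choroid) and all 8 groups in one fit for comparisons of tissues (24317 genes). This scale understates changes of low genes, and percentages of a level are back-transformed from it. Tissues of a mouse were paired by the mouse number of the library names: all 20 numbers lay on the same side of sex-linked genes in both tissues, and deviations from the group means correlated at a median of 0.18 (-0.20 to 0.36, over 0.1 in 14 of 20 mice). The main fit had no block. On simulated data with 200 genes changed by 1 log2, the procedure called 78.5% of them and 9 unchanged genes in retina, and 78.0% and 7 in choroid. Levels per kilobase used the canonical transcript, which may not be the one used in these tissues. Upstream windows were read from GRCm39 with Python 3.11.15, and figures were drawn with matplotlib 3.10.9.

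The members, the pathway lists and the marker lists were chosen with earlier results of these data known. Named were all members, pathway genes that were called or whose list is described, the 2 genes most like each member in each tissue, and markers that bear on a member; single genes that this rule would name are not reported here. Alternatives were pseudocounts of 0.5 and 5, a minimum mean of 10 or none, rescaling by trimmed means, a robust variance, a neural retina or sex score as a covariate, fits of 10 libraries, the mouse as a block and leaving out each mouse; endothelial and fibroblast scores as covariates were added after the data had been seen. The authors' covariates (sex and a neuronal percentage) are not in the labels and were not used here, and Fcrls, 1 of 137 listed genes, was not matched.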

Additional observations from a re-analysis of the deposited data

Results flagged for a closer look

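Among 64 groups of 5 libraries (8 members in 8 groups), 6 held a library whose distance from its nearest neighbour exceeded 0.71 of the whole range of the group, the critical share of Dixon's test for 5 values, where chance alone gives about 3.20. Acvrl1 in the retina held 3 of them: mouse 4 of control – PLX at 314 normalized counts (share 0.766, the others from 133 to 175), mouse 9 of Tgfbr2ΔEC – PLX at 390 (0.747, the others from 146 to 208) and mouse 12 of control + PLX at 472 (0.861, the others from 152 to 196). The gene most like Acvrl1 over these retinae was Ext1 (r = 0.78). Tgfb2 stood apart in the choroid of mouse 3 of control – PLX at 1635 (0.717, the others from 1097 to 1249). Tgfbr1 was low in the retina of mouse 7 of Tgfbr2ΔEC – PLX at 705 (0.734, the others from 931 to 1013). Tgfbr3 was high in the choroid of mouse 20 of Tgfbr2ΔEC + PLX at 4640 (0.750, the others from 3939 to 4114).

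The change of Tgfbr2 with PLX differed between the tissues, by 0.81 log2 in the test of the difference itself (limma adjusted p = 0.0238). It was -0.69 log2 in the retina and 0.11 log2 in the choroid, and neither of these was called on its own.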

How the results depend on the processing

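Under the alternatives that keep all mice, the 8 tissue differences and the directions of the members called with PLX held. The mouse as a block left 19855 genes called between tissues and 268 for the difference in the effect of PLX, in place of 19930 and 332, and changed no call of a member. In retinae with PLX 0 in place of 1 member was called with a pseudocount of 5, no minimum mean, or a neural retina, sex, endothelial or fibroblast score as a covariate (Tgfb1 at -0.97 to -0.74 log2 with these scores). In choroids with PLX, the endothelial score as a covariate left 1 member called, Tgfb1, in place of 3. In control choroids 2 members were called with a minimum mean of 10 and 0 in a fit of the 10 libraries alone, in place of 1. Gene counts moved by over 1.5 times with a minimum mean of 10 (retina with PLX 154 in place of 254, control retinae 104 in place of 171), with the neural retina score (Tgfbr2ΔEC choroids 538 in place of 958), with the endothelial score (618 in place of 1684 over both genotypes, 458 in place of 885 in controls, 468 in Tgfbr2ΔEC choroids), with the fibroblast score (618 in Tgfbr2ΔEC choroids) and in fits of 10 libraries (572 in control choroids). Between genotypes in choroids without PLX, 0 genes were called with a minimum mean of 10 and 303 in a fit of 10 libraries, in place of 1. With PLX 0 were called in place of 1 under a pseudocount of 5, a minimum mean of 10, each of the 4 covariates and the fit of 10 libraries. Signs turned for small differences that were not called: Tgfbr2 between genotypes with the neural retina score (0.038 in retinae with PLX, 0.048 in choroids without PLX, -0.020 for genotype by diet in choroids) and with the fibroblast score (-0.011 in choroids with PLX), and with PLX Eng in the retina (0.122) and Acvrl1 in the choroid (-0.005) with the endothelial score and Tgfbr3 in the retina (0.023) with the fibroblast score. When single mice were left out in turn, the members called with PLX numbered 0 to 1 in the retina, 1 to 5 in the choroid, 0 to 1 in control retinae, 0 to 2 in control choroids, 0 to 1 in Tgfbr2ΔEC choroids and 0 to 1 for the difference between tissues. Genes called between genotypes numbered 0 to 1 in retinae with PLX, 1 to 411 in choroids without PLX (411 without mouse 15, whose choroid had a neural retina score of 12.65) and 0 to 1 in choroids with PLX, and those for the difference between tissues 278 to 620 (620 without mouse 15). Signs turned within these ranges for Tgfb2 (-0.037 to 0.053) and Tgfbr3 (-0.067 to 0.021) in retinae with PLX, Tgfbr2 between genotypes (-0.278 to 0.024 in retinae with PLX, -0.091 to 0.002 in choroids without and -0.039 to 0.071 in choroids with PLX) and Acvrl1 for the difference between tissues (-0.158 to 0.078). The causes of these changes were not tested. Tgfb1 in the retina rested on the fewest counts among the members, 19.5 to 136 normalized counts per library.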
